A study of Mus musculus with 10 samples.

Results

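The genes described here encode subunits of the 5 complexes of oxidative phosphorylation in the mouse. They were taken by symbol from the protein-coding genes of the mm10 GENCODE annotation (Nduf, Sdh, Uqcr, Cyc1, Cox4 to Cox8, Atp5 and the mitochondrially encoded mt-Nd, mt-Co, mt-Atp and mt-Cytb genes). The count table held 98 of them among its 48526 genes, 85 encoded in the nucleus and 13 in the mitochondrial genome. A gene was kept with 10 or more reads in 5 or more of the 10 libraries, which left 86 members (79 nuclear and 7 mitochondrial) against 13453 genes of the whole table. The kept nuclear members were all 35 of complex I, all 4 of complex II, all 9 of complex III, 14 of 20 of complex IV and all 16 of complex V. Atp5s, which is no subunit of the mature enzyme, was counted apart, and Ndufa4 and Ndufa4l2 were counted with complex IV, where Ndufa4 is a subunit.

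Bulk RNA-seq read counts were given for 5 libraries from stressed and 5 from non-stressed mice. All 10 carry the strain label ApoE, with no allele, age or diet given, and all are labelled endothelial cells sorted by flow cytometry from the aorta. The stressed animals underwent acute mental stress for 3 h a day on 3 days in a row. The non-stressed animals had no such treatment. Nothing in the labels says whether a library came from 1 animal or from a pool. The study asked how such stress changes these cells. Libraries are named NS1 to NS5 (non-stressed) and S1 to S5 (stressed) by group and replicate number.

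Oxidative phosphorylation passes electrons from NADH and succinate along complexes I to IV of the inner mitochondrial membrane to oxygen, and complex V uses the proton gradient that complexes I, III and IV build to make ATP. Complexes I, III, IV and V are mosaics: a few hydrophobic core subunits are encoded in mitochondrial DNA and the rest in the nucleus, whereas complex II is wholly nuclear and also belongs to the tricarboxylic acid cycle. Endothelial cells and many activated leukocytes lean on glycolysis, but both keep a working respiratory chain.

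Total counts ran from 18020220 to 38237346 per library, so that a gene with 0 reads may stand as high as 0.0785 CPM in the deepest and 0.166 CPM in the shallowest library (3 counts, counting error only), where CPM is reads of a gene per 1000000 reads of its library. The labelled cell type was checked against its markers. The summed level of 14 endothelial genes was 65.8 to 115 CPM in the non-stressed and 65.2 to 109 CPM in the stressed libraries, and Tek, Emcn and Cldn5 had 0 reads in all 10. The summed level of 12 macrophage and monocyte genes was 22783 to 35151 CPM and 27586 to 34823 CPM. The levels below are therefore those of libraries labelled endothelial in which myeloid markers far exceeded endothelial ones. Neutrophil genes (10 genes) summed to 190.3 to 1479.6 CPM and 336 to 1184 CPM, and erythroid genes (7 genes) to 1330.5 to 2776 CPM and 1171 to 5554 CPM. In bulk RNA, fewer cells of a type and less RNA per cell cannot be told apart. In each group 3 libraries (numbers 2 to 4) carried Y-linked transcripts (Ddx3y above 100 reads) and 2 (numbers 1 and 5) did not.

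The mitochondrially encoded members are described first, because the table lists several of them, which are usually among the most abundant mRNAs of a cell, at 0. mt-Co2, mt-Co3, mt-Atp6, mt-Atp8 and mt-Nd4l had 0 reads in all 10 libraries, and mt-Nd3 had 1 read in 1 library. These 6 encode core subunits of complex IV, both mitochondrial subunits of complex V and small membrane subunits of complex I. They lie next to each other in the mitochondrial genome, between mt-Co1 and mt-Nd4. The other 7 members were counted in every library. The 0 values were read against sequence shared with other annotated genes, as the percentage of a gene's 50-base windows also found in a transcript of another gene. That percentage was 100% for mt-Co2, 99.9% for mt-Co3, 99.5% for mt-Atp6, 98.8% for mt-Nd4l and 98.0% for mt-Nd3. It was 62.2% for mt-Nd4, 51.1% for mt-Co1, 8.19% for mt-Nd2 and 7.61% for mt-Nd5, and 0% for mt-Nd1, mt-Nd6 and mt-Cytb. It was also 0% for mt-Atp8 (0 of 155 windows), the only gene of the 6 without a shared window. Its last 21.1% (chrM:7927-7969) is also the start of mt-Atp6, a stretch shorter than 1 window.

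The copies of these genes form a nuclear block on chromosome 1 of mm10, on the minus strand, annotated as unprocessed pseudogenes. Gm28661 (chr1:24614885-24615565) matched mt-Co2 (chrM:7013-7696) over 681 bases with 0 differences. Gm10925 (chr1:24613974-24614651) matched mt-Atp6 (chrM:7927-8607) over 678 bases, and Gm28437 (chr1:24613189-24613971) matched mt-Co3 (chrM:8607-9390) over 783 bases, both with 0 differences. Gm10222 (chr1:24612407-24612700) matched mt-Nd4l (chrM:9877-10173) over 294 bases with 0 differences. Gm28439 (chr1:24611535-24612410) matched the first 876 of the 1378 bases of mt-Nd4 (chrM:10167-11544) with 0 differences. The block ends inside mt-Co1 (chrM:5328-6872) at its other side. There Gm29216 (chr1:24615706-24616197) was aligned to the last 492 bases of the gene, with 6 differences, and was identical over the last 479. mt-Atp8 (chrM:7766-7969) has no annotated copy beyond the bases it shares with the start of mt-Atp6, which are also in Gm10925. It begins between mt-Co2 and mt-Atp6. The start of the mitochondrial gene plus the end of its copy gave 24622578 for both mt-Co2 and mt-Atp6. The copies of these genes are therefore spaced as the genes are, with as many bases between them. Only annotated transcripts were searched, so the bases of the block between Gm10925 and Gm28661 were not looked at. The copies themselves held 0 to 26 reads each over all libraries.

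The sequences below show how close the copies are, and where the copied stretch begins and ends inside mt-Co1 and mt-Nd4. Positions are counted from base 1 of the mitochondrial gene, in the direction of transcription. Gm28438 (chr1:24612775-24613119) differs from mt-Nd3 (chrM:9459-9806) at 1 of 345 bases, T3C, shown in capitals in the first 60 bases of each.
mt-Nd3: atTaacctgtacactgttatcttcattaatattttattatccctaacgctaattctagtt
Gm28438: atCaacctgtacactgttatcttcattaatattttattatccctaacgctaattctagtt
Bases 1054 to 1113 of mt-Co1 and bases 1 to 60 of Gm29216 span the edge of the block. Capitals mark the 6 differing bases of an alignment without gaps (T1056A, C1057T, A1059G, A1060G, C1062A and A1066T). After them the shared stretch runs from base 1067 to base 1545, the end of the gene. Whether the bases before base 1067 belong to the copy was not tested.
mt-Co1: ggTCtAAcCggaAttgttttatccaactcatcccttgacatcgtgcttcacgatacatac
Gm29216: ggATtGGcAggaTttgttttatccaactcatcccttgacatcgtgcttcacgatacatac
In mt-Nd4 the shared stretch ends at base 876. It is in capitals in bases 847 to 906.
mt-Nd4: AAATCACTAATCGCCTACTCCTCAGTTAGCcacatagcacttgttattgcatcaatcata
How reads that map to more than 1 place were counted is not given in the sources used here, and the part of the shared sequence in the 0 values was not tested.

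**Figure D1:**
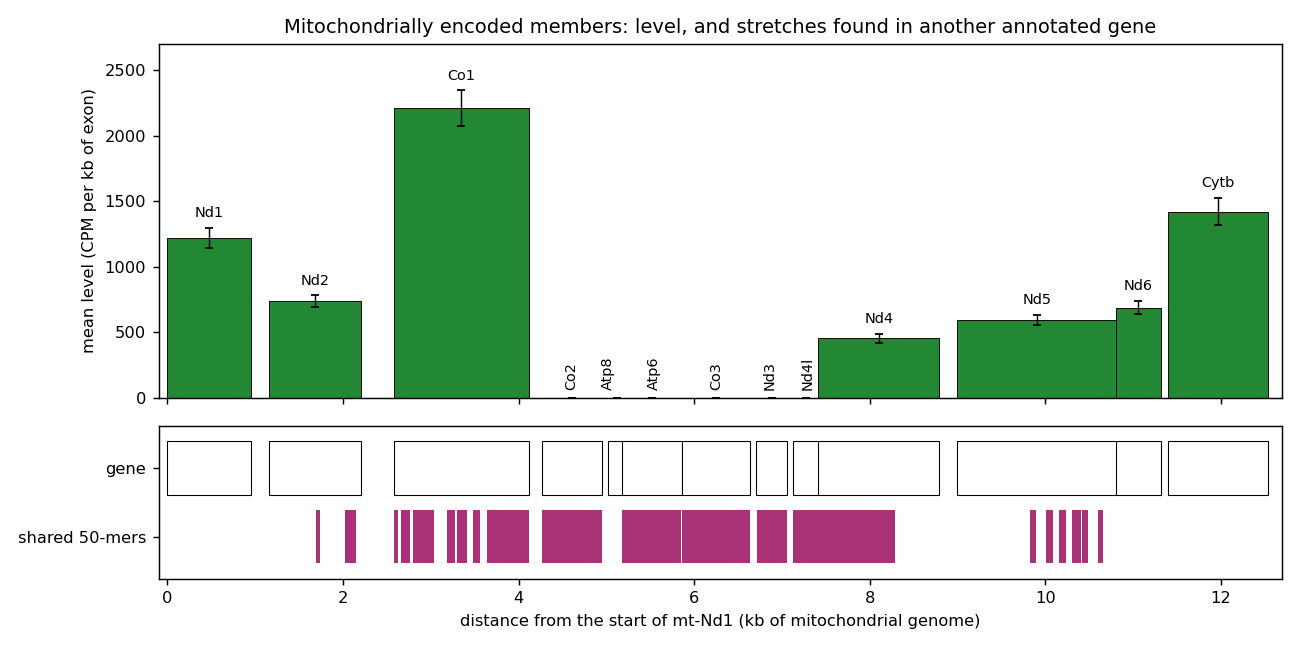
The upper panel plots the mean level of each mitochondrially encoded member in CPM per kb of exon (bars as wide as the gene, error bars SD over 10 libraries) against distance from the start of mt-Nd1 in kb. The lower panel draws the genes as boxes and, in purple, the stretches of 50-base windows also present in another annotated gene. Co2, Atp8, Atp6, Co3, Nd3 and Nd4l stand at 0, and all of these but Atp8 are covered by shared sequence over 98.0% to 100% of their windows.

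Among the 7 counted mitochondrial genes, mt-Co1, the catalytic subunit of complex IV, had the highest level. It stood at 3021, 3556, 3266, 3345 and 3742 CPM in NS1 to NS5 and at 3326, 3474, 3573, 3266 and 3575 CPM in S1 to S5. The groups overlapped, and the lowest and the highest value were both non-stressed. Per kb of exon the mean level over 10 libraries was 2209.9 ± 135 CPM (SD) for mt-Co1, 1421 ± 102 CPM for mt-Cytb, the cytochrome b of complex III, and 1221 ± 75.9 CPM for mt-Nd1. The other complex I genes followed with mt-Nd2 at 738 ± 42.8 CPM per kb, mt-Nd6 at 688 ± 52.6, mt-Nd5 at 595 ± 37.1 and mt-Nd4 at 454 ± 34.3. mt-Nd2 and mt-Nd6 differed by less than the larger of their 2 SDs, and each other pair of neighbours in that order differed by more. When the level was set against the 50-base windows that occur in no other annotated gene, mt-Nd4 rose from the lowest place to 1245 CPM per kb, between mt-Nd1 (1287) and mt-Nd2 (843), and mt-Co1 to 4671. The order of mt-Nd4 among the mitochondrial genes thus depends on the length used, and that choice was made after the values were seen.

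All 7 mitochondrial members lay above all 79 nuclear ones per kb. The median level was 738 CPM per kb of exon for the mitochondrial and 41.5 CPM per kb for the nuclear members. Since several nuclear genes have long alternative exons, the level per kb of 1 transcript is used for nuclear genes from here. It is the transcript with the longest coding sequence, with ties settled by name, and need not be the one expressed. Some are long: 4660 bases for Atp5g1 (coding 408), 4371 for Ndufb2 (coding 315) and 3171 for Sdhc (coding 507). The values per kb of these 3 genes depend on that length. The median of the nuclear members was then 71.1 CPM per kb. By complex it was 57.1 in complex I, 72.4 in complex II, 75.1 in complex III, 98.5 in complex IV and 102 in complex V. These are medians over genes of one set of libraries, and no test compared the complexes. Mitochondrial mRNAs accounted for 0.831% to 0.971% of all reads, depending on the library, and nuclear members for 0.582% to 0.677%, so that 1.34 to 1.57 mitochondrial mRNA reads were counted for each nuclear member read. With 6 of 13 genes at 0 or 1 read, this ratio is a ratio of counted genes, not of the genomes' output.

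**Figure D2:**
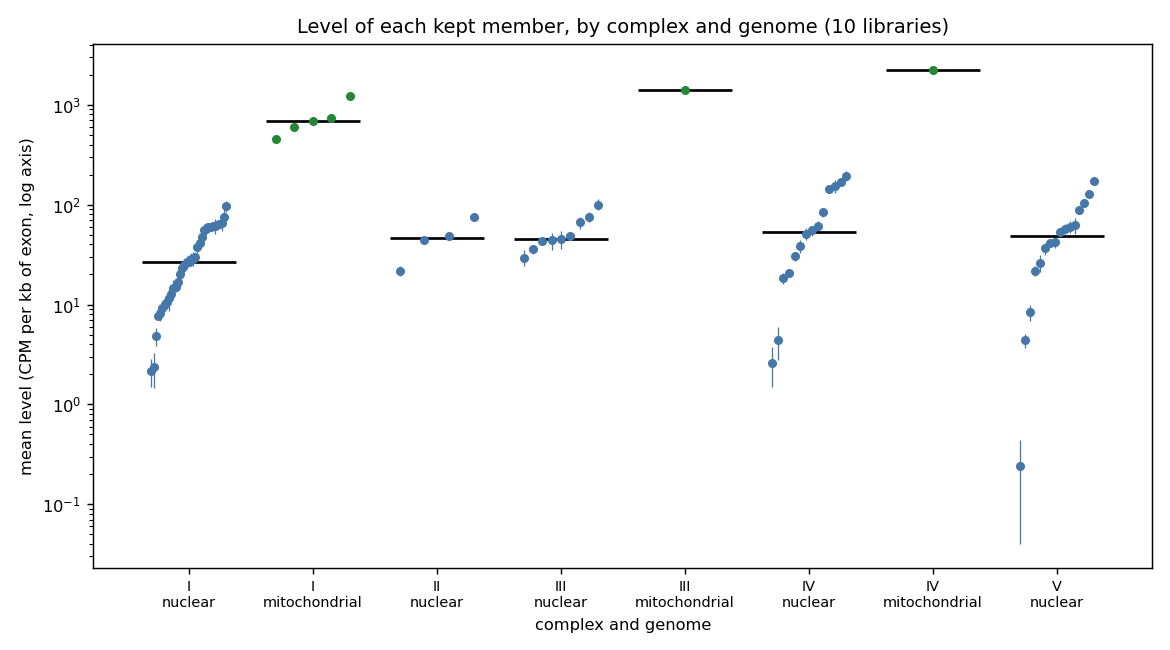
Each point is 1 kept member, plotted by complex and genome on the x axis and by mean level in CPM per kb of exon on a logarithmic y axis, with the SD over 10 libraries as error bar and the median of each column as a line. The 7 mitochondrial members (green) stand between 454 and 2209.9 CPM per kb, above every nuclear member (blue), the highest of which is Cox4i1 at 193.

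Complex I, which oxidises NADH, had 35 nuclear members. Its 7 nuclear core subunits, which hold the flavin and the iron-sulphur clusters, had a median of 42.2 CPM per kb of transcript. Ndufs1 was the lowest of them at 24.2. Its 28 accessory subunits, which surround the core, ranged more widely, from 2.78 (Ndufb2) to 179.9 CPM per kb (Ndufa3), with a median of 58.3. Ndufb4 stood at 4.64 CPM per kb. Per kb of all exons, Ndufa1, an accessory subunit encoded on the X chromosome, was the highest at 96.4 CPM per kb and Ndufb2 the lowest at 2.16.

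Complex II spanned 22.3 to 85.9 CPM per kb of transcript. Sdha, the flavoprotein that oxidises succinate, stood at 202 ± 13.3 CPM (SD over 10 libraries) and 69.6 CPM per kb of transcript, Sdhb, the iron-sulphur subunit, at 98.1 ± 8.60 CPM and 85.9 CPM per kb, and Sdhd, one of the membrane anchors, at 92.6 ± 7.75 CPM and 75.2 CPM per kb. Sdhc, the other anchor, was lower at 70.6 ± 7.84 CPM and 22.3 CPM per kb. In complex III, Uqcrh, the hinge protein, was the highest at 226 CPM per kb of transcript. The catalytic subunits Cyc1 (cytochrome c1) and Uqcrfs1 (the Rieske iron-sulphur protein) stood at 50.5 and 75.1, and Uqcrc1 and Uqcrc2 at 121 and 58.5. The 9 nuclear members of complex III spanned 50.5 to 226 CPM per kb.

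In complex V the parts overlapped in level. The catalytic head and central stalk (Atp5a1, Atp5b, Atp5c1, Atp5d and Atp5e) had a median of 217 CPM per kb of transcript, from 78.6 (Atp5d) to 283 (the catalytic subunit Atp5b). The 4 subunits of the peripheral stalk (Atp5f1, Atp5h, Atp5j and Atp5o) had a median of 103 CPM per kb, from 86.3 to 268 (Atp5h). The proton-carrying c-ring is encoded by 3 genes, Atp5g1, Atp5g2 and Atp5g3, whose precursors give the same mature protein. Atp5g3 held 162 CPM per kb, Atp5g2 19.1 and Atp5g1 4.61. Over all libraries that was 31679 reads for Atp5g3, 3718 for Atp5g2 and 5843 for Atp5g1, so the order of Atp5g1 and Atp5g2 depends on the transcript length used. The 4 other membrane subunits (Atp5j2, Atp5k, Atp5l and Atp5mpl) had a median of 87.4 CPM per kb, from 2.87 to 104. Atp5l, the lowest of them, had only 426 reads in total and 2.87 CPM per kb, the lowest of complex V.

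Several subunits of complex IV have tissue isoforms, and 1 form held nearly all reads of each. Cox7a2l, a relative of the subunit 7a forms, was abundant beside Cox7a2. Cox4i1, the common form of subunit 4, stood at 299.7 ± 33.3 CPM, while Cox4i2, the form known from lung and low oxygen, had 4 reads in 1 library. Cox6a1 stood at 101 ± 9.38 CPM, and its heart and muscle counterpart Cox6a2 had 17 reads in 2 libraries. Cox8a stood at 103 ± 5.62 CPM, and Cox8b, also a heart and muscle form, had 17 reads in 3 libraries. Cox7a2 held 57.8 ± 6.27 CPM, Cox7a2l 124 ± 11.6 CPM and the muscle form Cox7a1 1.40 ± 0.608 CPM. Cox6b1 stood at 109 ± 16.9 CPM and Cox6b2, best known from testis, at 4.86 ± 1.79 CPM. Ndufa4 stood at 70.7 ± 9.16 CPM, and Ndufa4l2, a target of hypoxia signalling, had 0 reads, as had Cox7b2 and Cox8c. The 6 nuclear members that were not kept are these isoforms of complex IV (Cox4i2, Cox6a2, Cox7b2, Cox8b, Cox8c and Ndufa4l2). Cox6a2 and Cox8b reached 10 reads in 1 library each, whereas the members nearest to the limit among those kept, Atp5l and Atp5s, reached it in 8 and 9.

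Some nuclear members also share their coding sequence with processed pseudogenes elsewhere in the genome. Of the 79, 45 shared no 50-base window of their coding sequence with another annotated gene, 21 shared up to 50%, 8 shared over 50% and up to 90%, and 5 shared over 90%. The 5 were Ndufb4, Cox7c, Atp5g1, Atp5g2 and Atp5l. Their median level was 14.0 CPM (range 1.56 to 34.2), against 62.6 CPM in the 45 with no shared window, 59.1 CPM in the 21 and 67.8 CPM in the 8. Per kb of transcript the medians were 4.64, 75.2, 67.2 and 89.8 CPM. Of the 5, Cox7c, with all coding windows shared, stood at 63.4 CPM per kb, and the others ran from 2.87 (Atp5l) to 19.1 (Atp5g2). The pseudogenes that held the most windows of each of the 5 had 0 to 22 reads themselves. The levels of Ndufb4, Cox7c, Atp5g1, Atp5g2 and Atp5l relative to their partners are therefore uncertain, and the part of the shared sequence in them was not tested.

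**Figure D3:**
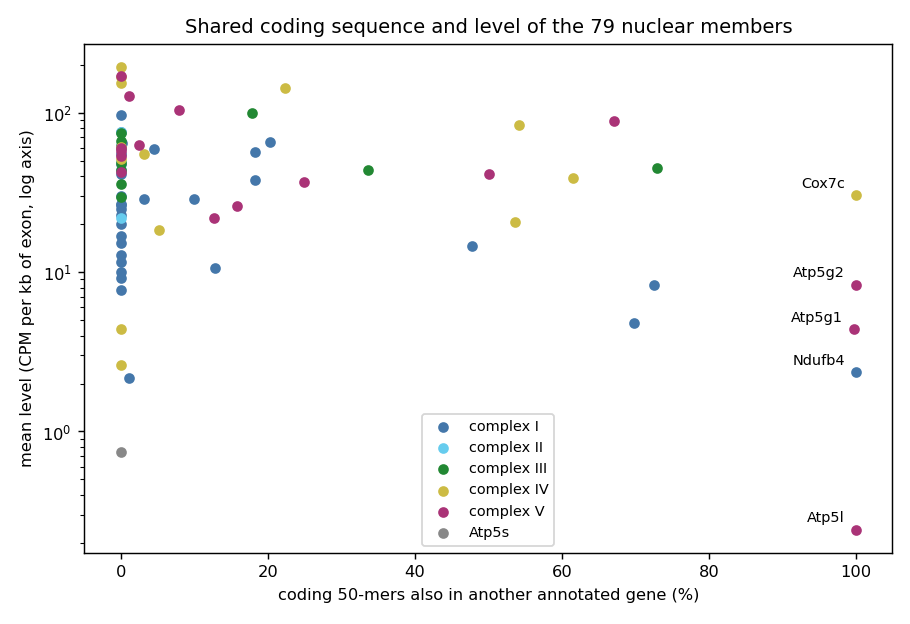
Each point is 1 of the 79 nuclear members, with the percentage of its coding 50-base windows also found in another annotated gene on the x axis and its mean level in CPM per kb of exon on a logarithmic y axis. Colours give the complex. The 5 named genes at the right edge lie between 0.242 and 30.3 CPM per kb of exon, and the members with no shared window spread from 0.742 to 193.

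What the nuclear members share besides their function was sought in their promoters. The RefSeq windows of GRCm38.p6 (250 bases before to 50 after a start) matched 66 of the 85 nuclear members, 64 of them kept. Both strands were searched, and a gene counted when any of its windows held the letters. The letters of NRF1, a factor named for nuclear control of respiratory genes (GCGCATGCGC, a half-site and its reverse complement), stood in 5 of the 64 (7.81%), against 1.07% of all 27025 genes. The core of the ETS factor GABP (CCGGAAG) stood in 16 (25%), against 9.93%. Those of YY1 (AAGATGGC) stood in 9 (14.1%), against 3.19%, and 7 of these 9 belonged to complex I (Ndufa3, Ndufa9, Ndufb8, Ndufc1, Ndufs4, Ndufs6 and Ndufs7). Complex I made up 31 of the 64 members searched, and no test compared the complexes. CCAAT stood in 43.8% against 41.1%, and TATAAA in 7.81% against 15.7%. The median G and C content was 57.2% in the windows of the members and 52.8% in those of all genes. A match says only that the letters are there. Uqcrc1 of complex III and Atp5g2 of complex V held the NRF1 letters but are not shown. The surroundings of the NRF1 letters (capitals) are shown for 3 members, 1 from each of complexes I, IV and V. They were picked by a limit on annotated exon bases and on the distance to the window's edge. They are 40 bases each, from chr17:56717687-56717726 (plus strand), chr5:115349096-115349135 (minus) and chr5:108434425-108434464 (minus), and the letters end 50, 152 and 40 bases before the RefSeq start. GENCODE places an exon further upstream in Atp5k, so that 9 of the 10 letters lie within an annotated exon there, against 0 in Cox6a1 and Ndufa11.
Ndufa11: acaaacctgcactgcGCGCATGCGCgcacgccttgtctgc
Cox6a1: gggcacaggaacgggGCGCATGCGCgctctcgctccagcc
Atp5k: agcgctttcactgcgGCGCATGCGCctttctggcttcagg

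Stress was then compared with no stress over the whole table, and the members were read out of that fit. None of the 86 members passed the threshold in either direction (0 of 86, edgeR's quasi-likelihood test, Benjamini-Hochberg adjustment over 13334 genes at 0.05), where 1 gene (0.0075%) did. DESeq2 and limma-voom also called 0 members. At an unadjusted p under 0.05 the count was 5 higher and 0 lower. That is 5.81% of the members in either direction, against 5.53% of all genes (2.59% higher and 2.95% lower). Among the 7316 genes with an average above 4 log2 CPM the share in either direction was 7.996%. The estimates were mostly small and positive. The log2 fold change was above 0 in 69 of 86 members, against 50.9% of all genes tested, in 63 of 79 nuclear and in 6 of 7 mitochondrial members. The median log2 fold change was 0.08 in the nuclear members and 0.08 in the mitochondrial ones, and 0.00 over all genes. Since the members vary together from library to library, their number with 1 sign is a description and not a test.

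The intervals were about as narrow as those of other well-expressed genes. For 77 of the 86 members (89.5%) the 95% interval of the fold change lay within 1.5-fold either way, against 52.8% of all genes and 89.6% of the 7316 genes with an average above 4 log2 CPM. All 7 mitochondrial members were among the 77. Their log2 fold changes ran from -0.01 (mt-Nd1, SE 0.06, adjusted p = 0.998) to 0.11 (mt-Nd4, SE 0.07, adjusted p = 0.940), and the median SE was 0.06. Over the 7 genes, the lowest bound of a 95% interval was -0.15 (mt-Nd1) and the highest 0.26 (mt-Nd4) on the log2 scale.

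The mean level of the nuclear members, as the mean of log2(CPM + 1) over the 79 genes, was 5.56, 5.64, 5.63, 5.64 and 5.74 in NS1 to NS5 and 5.54, 5.58, 5.80, 5.80 and 5.83 in S1 to S5. S3, S4 and S5 lay above all non-stressed libraries and S1 lay below them all, so the groups overlapped. The difference of 0.07 was smaller than the SD of 0.139 among the stressed libraries. It was 0.09 among the libraries with and 0.03 among those without Y-linked transcripts. S1 and S2 also had the highest neutrophil marker sums of the stressed libraries, 885 and 1184 CPM against 429, 445 and 336 CPM in S3 to S5, and NS1, the lowest non-stressed library, had 1479.6 CPM. Several other marker lists, but not all, split the stressed libraries in the same way. S1 and S2 also had the highest stressed sums of T and NK cell genes (78.9 and 80.4 CPM against 21.6, 12.3 and 13.6 CPM), dendritic cell genes (189 and 207 against 90.7, 112 and 109), endothelial genes (109 and 101 against 79.8, 75.3 and 65.2), platelet genes (288 and 274 against 233, 130 and 152) and B cell genes (675 and 656 against 360, 653 and 497). They had the lowest sums of macrophage and monocyte genes (28381 and 27586 against 31347, 34823 and 34094). Erythroid sums did not split so (3929, 2621, 5554, 1171 and 3465 CPM in S1 to S5), nor did smooth muscle sums (18.3 to 22.3 CPM). Neutrophil sums were 1479.6, 757, 524, 190.3 and 190.3 CPM in NS1 to NS5. Of these libraries, NS2 had the highest T and NK cell (119 CPM), dendritic cell (213), B cell (995) and endothelial (115) sums, with the same nuclear mean as NS4. The part of those cells in the level of the members was not tested. The mitochondrial mean was 9.88, 10.11, 9.94, 9.89 and 10.03 in NS1 to NS5 and 10.01, 10.01, 10.09, 10.04 and 10.02 in S1 to S5. It overlapped as well, with all 5 stressed libraries inside the non-stressed range and S1 and S2 close to S5. The nuclear minus the mitochondrial mean was -4.33 ± 0.086 in the non-stressed and -4.33 ± 0.123 in the stressed libraries (SD, n = 5 each), a difference of 0.00, so the balance of the genomes differed by less than the spread between libraries.

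**Figure D4:**
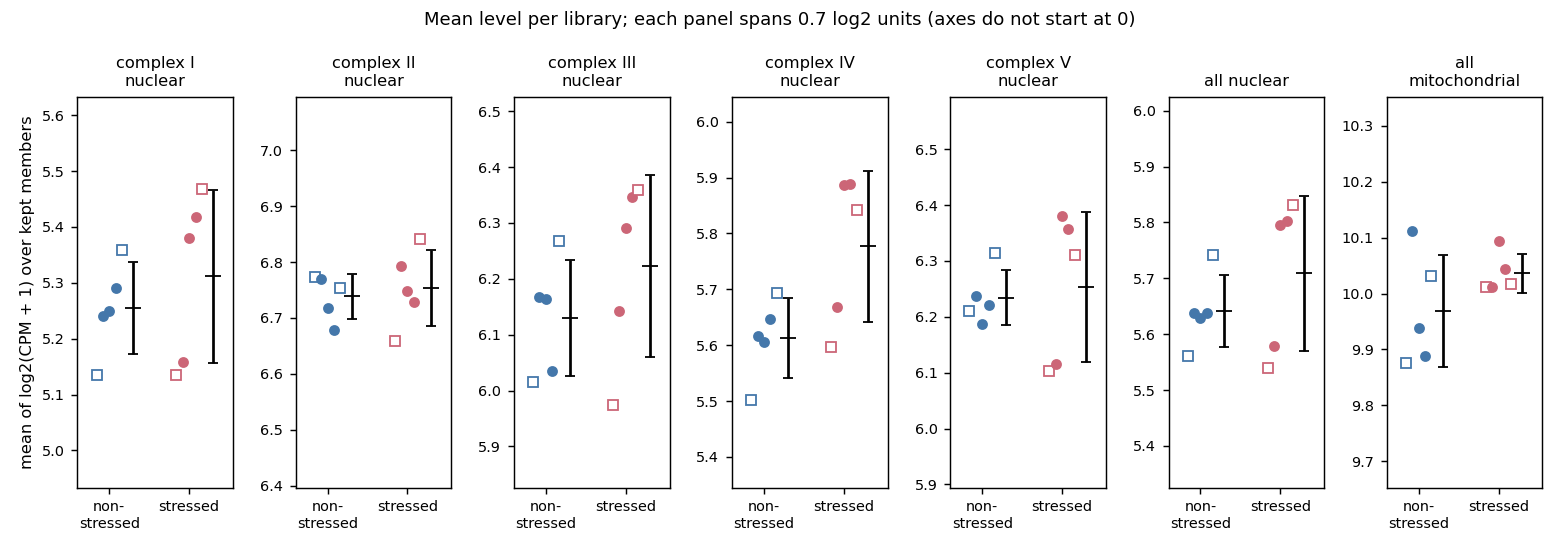
Each panel plots, for 1 group of members, the mean of log2(CPM + 1) in every library (blue non-stressed, red stressed, open squares for libraries without Y-linked transcripts), with the group mean and SD in black. Every panel spans the same range of log2 units. The groups overlap in all 7 panels, and S1 and S2 are the lowest stressed libraries in the nuclear panels of complexes I, III, IV and V. In the mitochondrial panel the stressed libraries span only 10.01 to 10.09.

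By complex, the estimates above 0 were 25 of 35 nuclear members in complex I (median log2 fold change 0.08), 3 of 4 in complex II (0.02), 9 of 9 in complex III (0.12), 13 of 14 in complex IV (0.11) and 13 of 16 in complex V (0.06). These medians rested in part on single libraries. Leaving out 1 library at a time, they ran from 0.03 (without S5) to 0.12 (without S1) in complex I, from -0.01 (without S4 or NS3) to 0.04 (without S1) in complex II and from 0.05 (without S4) to 0.15 (without S1) in complex III. They ran from 0.08 (without S3) to 0.17 (without S1) in complex IV and from 0.02 (without S4) to 0.11 (without S1) in complex V. Other moves of over 1.5 times were those without S4 in complex I (0.05), without NS2 (0.01), S3 (0.03) and S5 (0.01) in complex II, without NS1 (0.06) and S5 (0.07) in complex III, and without S3 (0.04) and S5 (0.03) in complex V. The largest difference of the library means was in complex IV, 5.61 ± 0.071 in the non-stressed and 5.78 ± 0.135 in the stressed libraries, with S3, S4 and S5 above all non-stressed libraries and S1 and S2 among them. That difference of 0.16 compares with a pooled SD within groups of 0.108. It was 0.19 among libraries with and 0.12 among libraries without Y-linked transcripts. The means of complex IV were 5.50, 5.62, 5.61, 5.65 and 5.69 in NS1 to NS5 and 5.60, 5.67, 5.89, 5.89 and 5.84 in S1 to S5. Each stressed library lay above the non-stressed one of the same number, which was not so in complexes I, II, III and V. The numbers were not taken to pair the samples. In complex III the difference was 0.09 (pooled SD 0.137), in complex I 0.06 (0.123), in complex V 0.02 (0.101) and in complex II 0.02 (0.056). Each mean counts its members alike, also those with few reads. In complex IV these include Cox6b2 (mean 3.51 CPM non-stressed, 6.20 CPM stressed) and Cox7a1 (1.13 and 1.67 CPM), both higher in the stressed libraries. In complex V they include Atp5l (2.31 and 0.807 CPM), which was lower. The order of these differences rests in part on such genes and was not recomputed without them. Whether the complexes differ from each other was not tested. Within complex III the 5 small subunits ran from 0.01 (Uqcrh) to 0.21 with a median of 0.18, and Uqcrc1 and Uqcrc2 stood at 0.00 and 0.04, inside or next to that range. Uqcrq, the middle one of the 5, stood at 0.06 without NS1. No test compared these subunits. Within complex V the head and central stalk ran from 0.04 to 0.08, the peripheral stalk from 0.01 to 0.13 and the c-ring from -0.05 (Atp5g1) to 0.33 (Atp5g2).

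The smallest p of any member belonged to Cox7a2l, a complex IV relative known for joining complexes III and IV into supercomplexes. It stood at 104, 114, 118, 117 and 115 CPM in NS1 to NS5 and at 131, 142, 133, 132 and 130.4 CPM in S1 to S5. The lowest stressed value exceeded the highest non-stressed one. That held for 2 of the 86 members, against 0.592% of all genes, and the reverse for 0 members, against 0.517%. The log2 fold change was 0.24 (SE 0.07, 95% interval 0.09 to 0.38, unadjusted p = 0.00376, adjusted p = 0.768), so it did not pass the threshold. The gene (chr17:83501918-83517330, minus strand) shares 54.1% of its coding windows with the processed pseudogene Gm6969, which had 111 reads against 33098.

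The other member without overlap was Ndufb11, an accessory subunit of complex I on the X chromosome (chrX:20615326-20617619, minus strand). It stood at 37.3, 57.1, 55.4, 57.5 and 57.8 CPM in NS1 to NS5 and at 59.3, 64.5, 67.5, 64.5 and 70.5 CPM in S1 to S5. NS1 was far below the rest, and the highest non-stressed library lay just under the lowest stressed one. The log2 fold change was 0.30 (SE 0.12, adjusted p = 0.874). Without NS1 it was 0.19. The other X-linked members, Ndufa1 and Cox7b, had log2 fold changes of 0.12 and 0.11. All 3 had similar means in the 6 libraries with and the 4 without Y-linked transcripts, 61.1 against 56.2 CPM for Ndufb11, 39.8 against 41.2 for Ndufa1 and 68.1 against 65.9 for Cox7b.

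Cox6b2, the minor isoform of subunit 6b, had the largest positive estimate of all members. It stood at 1.75, 3.00, 4.23, 3.09 and 5.49 CPM in NS1 to NS5 and at 6.09, 5.23, 6.63, 7.38 and 5.67 CPM in S1 to S5. Only NS5 reached into the stressed range. The log2 fold change was 0.82 (SE 0.32, unadjusted p = 0.021, adjusted p = 0.874), whereas its abundant partner Cox6b1 stood at 0.09 (SE 0.13). Cox5b, an accessory subunit of complex IV, stood at 46.2, 57.3, 57.2, 59.0 and 60.8 CPM in NS1 to NS5 and at 57.8, 59.3, 67.5, 78.2 and 71.8 CPM in S1 to S5, with S1 and S2 inside the non-stressed range (log2 fold change 0.25, SE 0.11, adjusted p = 0.874). Ndufb9 of complex I had the same size of estimate (0.25, SE 0.12, adjusted p = 0.893), and its ranges of 41.6 to 58.6 CPM and 51.8 to 71.0 CPM overlapped.

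The largest negative estimate was that of Atp5l. It stood at 4.81, 1.33, 1.79, 1.86 and 1.77 CPM in NS1 to NS5 and at 0.646, 0.355, 1.39, 1.52 and 0.116 CPM in S1 to S5. NS1 was high, and S3 and S4 lay within the non-stressed range. The log2 fold change was -1.51 (SE 0.72, unadjusted p = 0.053, adjusted p = 0.893), and all of its coding windows are also in a pseudogene. Of the isoform pairs, Cox4i1 stood at 244, 272, 276, 317 and 306 CPM in NS1 to NS5 and at 262, 319.6, 332, 336 and 332 CPM in S1 to S5. All stressed libraries but S1 lay above the non-stressed ones (log2 fold change 0.16, SE 0.09, adjusted p = 0.915). Ndufa3, Ndufa7 and Atp5g2, also among the 10 members with the smallest p, had log2 fold changes of 0.22, 0.22 and 0.33 and adjusted p-values of 0.940, 0.910 and 0.895. The 4 members of complex II stayed closest to 0, from -0.05 (Sdhc, SE 0.11) to 0.08 (Sdhd, SE 0.09).

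**Figure D5:**
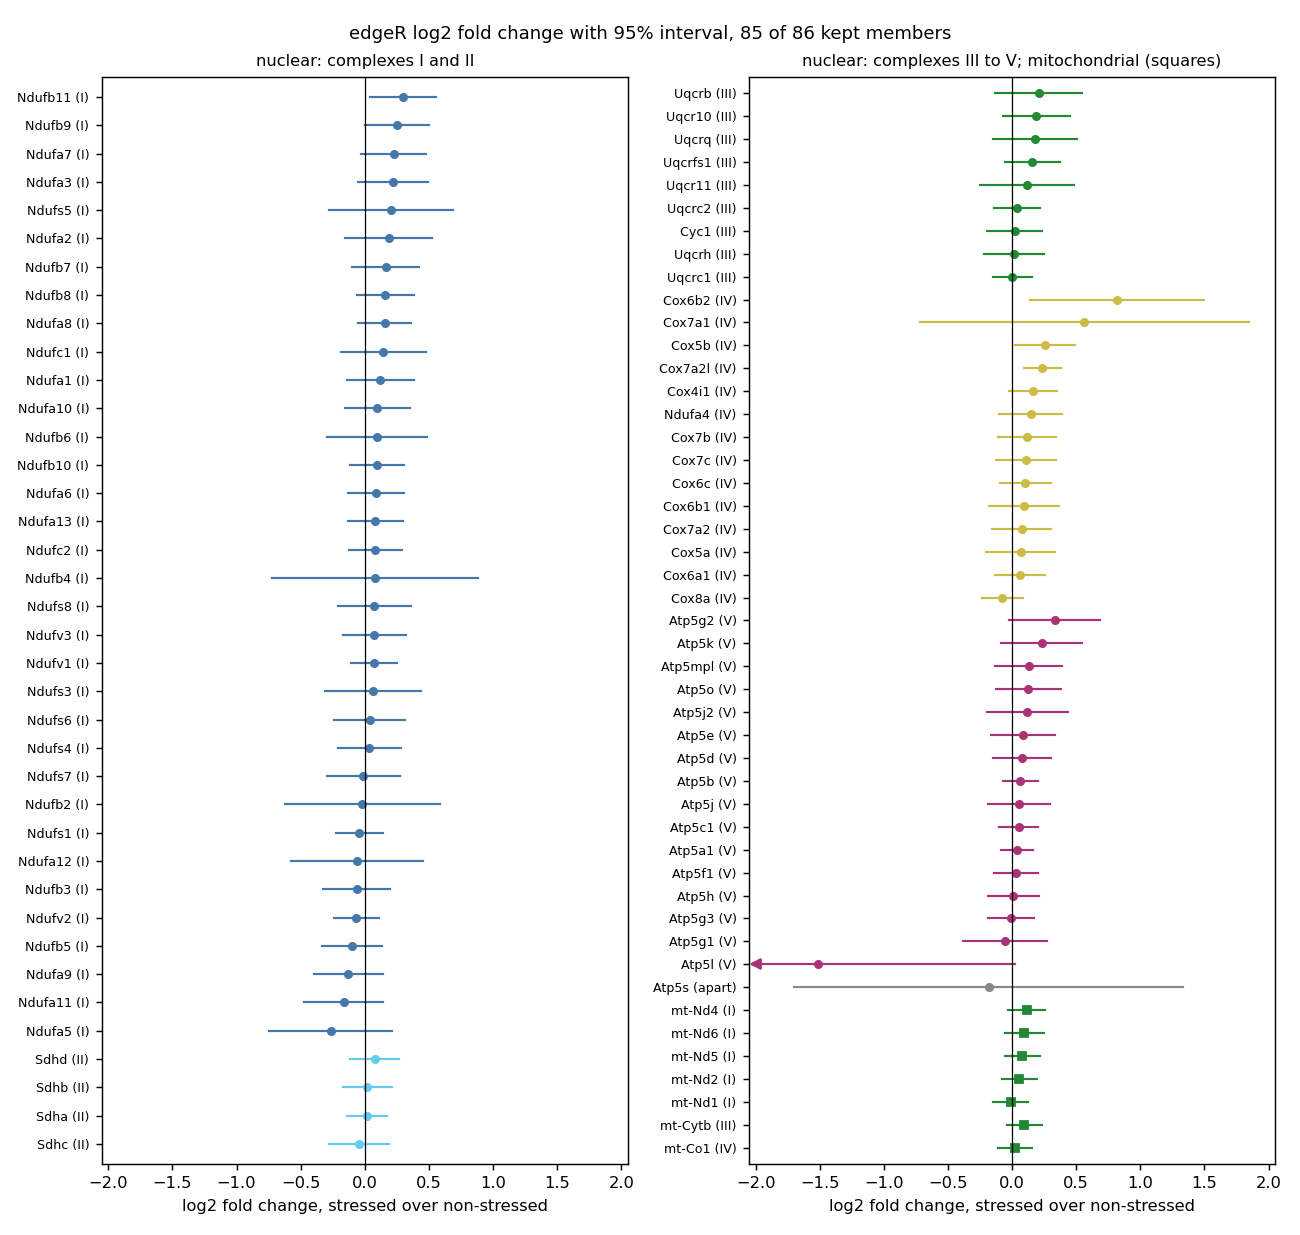
The x axes give edgeR's log2 fold change of stressed over non-stressed for 85 of the 86 kept members, each with its 95% interval, and the rows give gene and complex (colours by complex, squares for mitochondrial genes). Most points lie slightly to the right of 0 and most intervals cross it. The interval of Atp5l runs past the left edge (arrow).

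The number of members at an unadjusted p under 0.05 rested on single libraries. It was 10 higher without S1, 2 without each of NS1, S4 and S5, and 3 without NS3 or S3, and between 4 and 6 without each of the others. Without S3, and without S4, 1 member was lower at that level. The number of nuclear members above 0 ran from 55 (without S5) to 67 (without S1).

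Other genes of the pathway gave a background from 13 lists, and 0 of their 205 tested genes were called in either direction by edgeR, DESeq2 or limma-voom. At an unadjusted p under 0.05 edgeR had 5 of them higher and 1 lower. Assembly factors were balanced: 7 of 15 tested factors of complex I, 11 of 20 of complex IV 4 of 6 of complex III, 2 of 4 of complex II and 2 of 4 of complex V had estimates above 0. Ndufaf7, a methyltransferase acting on a complex I subunit, had the smallest p of the complex I factors (46.2 ± 9.40 CPM in the non-stressed and 56.1 ± 2.24 CPM in the stressed libraries, SD, n = 5 each, log2 fold change 0.28, SE 0.13, adjusted p = 0.893). The mitochondrial ribosome, which translates the mitochondrial mRNAs, had 52 of 77 proteins above 0 with a median of 0.09, and 3 higher and 1 lower at an unadjusted p under 0.05. Its smallest p-values were those of Mrps25 (log2 fold change 0.56, SE 0.19) and Mrps26 (0.49, SE 0.17), both with adjusted p = 0.829. Its RNAs, mt-Rnr1 and mt-Rnr2, stood at -0.14 (SE 0.11) and -0.08 (SE 0.09). Genes of mitochondrial DNA expression and RNA stability had 11 of 23 above 0 (median -0.02), with the helicase Twnk at 0.44 (SE 0.20, adjusted p = 0.882). Nuclear regulators of respiratory genes had 3 of 12 above 0 (median -0.07). Their smallest p-values were those of Chchd2, at 0.17 (SE 0.09), and Gabpa, which binds the ETS letters searched above, at -0.18 (SE 0.11). The tricarboxylic acid cycle had 7 of 13 above 0 (median 0.01), carriers of electrons and ubiquinone synthesis 11 of 14 (median 0.12), carriers of nucleotides and phosphate 6 of 7 (median 0.03) and genes of uncoupling and alternative electron entry 6 of 8 (median 0.06).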

How the data were processed

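The authors deposited 1 table of raw counts for 10 libraries, without normalization. Trimmomatic, STAR, featureCounts and mm10 are named per the submitters' processing notes. Not given in the sources used here are their versions, the annotation, the read length, the strand setting and the handling of multi-mapping reads. Overlapping and antisense genes are therefore uncertain. Of 48526 identifiers, 48144 matched GENCODE M21. The rest took between 0.0250% and 0.0344% of the reads.

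The members, the lists and the subunit groups were chosen with earlier results of these data known. Named are the members with the 10 smallest p-values, all mitochondrial members, the extremes of level in each complex, isoform groups, complex II, X-linked members and up to 2 genes of each other list with the smallest p. Ndufb4, Cox7c and the other genes named for sharing, role or promoter letters were picked with their values in view. 1 member is not reported by name here and is left out of the plot of fold changes, but stays in the counts and medians.

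The test was that of edgeR 4.0.16 under R 4.3.3 (filterByExpr with minimum count 10, TMM factors, quasi-likelihood F test, Benjamini-Hochberg adjustment over 13334 genes, which held 99.9% of counts). CPM uses TMM-scaled library sizes. Simulated counts for the same comparison and 13334 genes gave a recovery of 34.3% at 1.5-fold, 61.2% at 2-fold and 69.7% at 4-fold, with 3 false calls. Within groups, chi-square per degree of freedom between libraries was at least 22.3 and at most 69.8, so none was counted as a duplicate. Since nothing names separate animals, the p-values reflect only how these samples vary. Shared sequence was counted as exact 50-base windows of annotated transcripts on either strand. Alternatives were RLE and upper-quartile factors, TMM without mitochondrial genes, DESeq2 1.42.0, limma-voom 3.58.1 with quality weights, other filters, a threshold of 0.1, the replicate number or Y-linked transcripts in the model, and leaving out each library.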

Additional observations from a re-analysis of the deposited data

Results flagged for a closer look

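In groups of 5 libraries, a library was picked out when its gap to the nearest other library took up an unusually large part of the group's range (Dixon's criterion at 95%). Chance picks about 1 in 20 groups, 96 groups were examined, and 10 were picked, which is more than that rate gives, although the groups share their libraries. NS1 was the library in 5 of the 10. It was low for Cox7a2l (104 CPM, next 114), Ndufb11 (37.3 CPM, next 55.4) and Cox5b (46.2 CPM, next 57.2), and high for Atp5l (4.81 CPM, next 1.86) and Atp5g3 (137 CPM, next 116). S1 was low for Cox4i1 (262 CPM, next 319.6) and for Ndufa4 (59.1 CPM, next 76.4). S2 was high for Cox7a2l (142 CPM, next 133), and NS4 was low for Sdhc (61.6 CPM, next 73.0). For the nuclear minus the mitochondrial mean, NS2 was low (-4.47, next -4.31).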

How the results depend on the processing

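Under every alternative run, 0 members were called in either direction, and the 35 named members that were tested gave 0 calls in 665 refitted values (smallest adjusted p 0.122, with DESeq2). The number of genes called over the whole table was 1 and became 19 with DESeq2, 4 with the replicate block, 10 with no filter on low counts and 2 with limma-voom. Leaving out 1 library at a time gave 1 to 2 calls, the 2 without NS5. Same-numbered libraries of the groups had correlations of their deviations above 0.1 in 4 of 5 pairs, and 3 of 5 pairs correlated best with their own number. Y-linked transcripts also went by number, absent from NS1, NS5, S1 and S5 and present in the others. The labels name no shared animal or batch, and the correlation for number 3 was -0.03, so the numbers were not taken to pair the samples. Whether same-numbered samples were handled together cannot be told from the labels. The replicate block called 0 members and gave a complex IV median of 0.11, as without it. With that block, 7 members were higher and 0 lower at an unadjusted p under 0.05, and the smallest adjusted p was 0.502 (edgeR). The nuclear median stayed between 0.04 (without S5) and 0.13 (without S1), and the mitochondrial one between 0.04 (without NS4) and 0.11 (without NS2). Without the 13 members that share over 50% of their coding windows, an alternative added after the data were seen, the nuclear median was 0.08. The complex II median turned to -0.010 without S4 and -0.0087 without NS3. Estimates near 0 changed sign: Ndufb2 was 0.25 and Atp5g3 0.030 with limma-voom, and Uqcrh -0.0022 with the replicate block. Leaving out 1 library at a time, the log2 fold change ran from -0.020 to 0.057 for mt-Co1, -0.046 to 0.041 for mt-Nd1, -0.12 to 0.18 for Ndufb2, -0.048 to 0.083 for Uqcrh, -0.015 to 0.047 for Sdha, -0.022 to 0.065 for Sdhb, -0.11 to 0.025 for Sdhc, -0.17 to 0.011 for Atp5g1 and -0.037 to 0.045 for Atp5g3. The cause of these shifts was not tested. Cox7a2l stayed between 0.20 and 0.25, and Atp5l, at few reads, between -1.89 and -1.07.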
